A study of Homo sapiens with 4 samples.

Results

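The abundant RNA polymerase III transcripts examined here were 6 listed genes of 57768 gene entries: ENSG00000259001, RMRP, RN7SK, RN7SL1, RN7SL2 and RN7SL4P. They were selected on measured values of the same libraries, so their levels are given as a description, with no test. Of the 6, 4 had an entry under an identifier that the reference tables pair with the listed name. RMRP and RN7SL1 matched no entry by the identifiers of the newer annotation used here, and 2233 entries of the files stayed without a symbol. Whether RMRP or RN7SL1 is among these, under an older identifier, is not known, so no value is given for either. Of the 4 members with an entry, the word abundant held for ENSG00000259001 and, at a far lower level, for RN7SL4P, both in C/EBPβ enh-/- libraries. RN7SK and RN7SL2 were listed at 0 in all 4 libraries.

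The libraries were RNA-seq of cells that the labels call HepG2, an established human liver cancer line, with 2 WT libraries and the same number from C/EBPβ enh-/- cells. In the latter, both alleles of an enhancer of the gene for the transcription factor C/EBPβ had been deleted with CRISPR/Cas9. Values were FPKM, fragment numbers scaled by transcript length and by the number of mapped fragments. Nothing in the labels says that libraries of a genotype came from separate cultures, so p-values measure only the spread between these libraries, which may be technical. CEBPB, the gene that the deleted enhancer acts on, had FPKM of 30.6 and 19.2 in WT libraries 1 and 2 against 12.4 and 11.8 in C/EBPβ enh-/- libraries 1 and 2. Both values with the enhancer deleted were thus the lower ones, with a log2 fold change of -0.94, or -0.76 with ENSG00000259001 left out of the totals. CEBPB did not pass the threshold (adjusted p = 0.125, limma with Benjamini-Hochberg adjustment). Its log2 fold change was -0.62 without WT library 1 and -1.27 without WT library 2. In bulk RNA, fewer cells with a transcript and less of it per cell cannot be told apart. Of 20 hepatocyte markers, 19 stayed below 1 FPKM in each of the 4 libraries. Their summed level was 2.72 and 2.49 in WT libraries against 2.43 and 2.08 in C/EBPβ enh-/- libraries. The most abundant was FOXA1, at 1.23 to 2.09, while ALB reached 0.0553 at most and FOXA2 was listed at 0 throughout, so the defining markers of the labelled cell type were listed at or near 0.

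RNA polymerase III makes short noncoding RNAs that build or regulate other machines of the cell. The RNA of RNase P is the catalytic subunit of the enzyme that trims the leader of tRNA precursors, and RMRP is the RNA of the related RNase MRP, which acts on ribosomal RNA precursors. The 7SL RNAs (RN7SL genes) are the scaffold of the signal recognition particle, which brings nascent secretory proteins to the endoplasmic reticulum. 7SK RNA (RN7SK) holds the elongation factor P-TEFb inactive together with HEXIM proteins. The human genome carries many copies and pseudogenes of 7SL, 7SK, U6 and Y RNA genes.

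RefSeq places the RNase P RNA gene, RPPH1, within ENSG00000259001. This entry lies on the minus strand at chr14:20811207-20811844 (GRCh37), is annotated as a long noncoding RNA and has 1 listed length of 638 nt. WT libraries listed it at 0. C/EBPβ enh-/- library 1 had 93040.9 FPKM and library 2 had 52767.6. It was thus the highest of all entries in both C/EBPβ enh-/- libraries and had no value in either WT library. RN7SL4P, a 7SL pseudogene, followed the same order at a lower level. WT libraries again had 0, while C/EBPβ enh-/- library 1 had 319 (rank 185) and library 2 had 203 (rank 256). Because the WT values are listed zeros without counts behind them, no fold change is given for either RNA. Within the C/EBPβ enh-/- genotype the libraries were unlike: library 1 was 1.76 times library 2 for ENSG00000259001 and 1.57 times for RN7SL4P. The remaining pair with an entry, RN7SK and RN7SL2, gave 0 in each library.

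**Figure D1:**
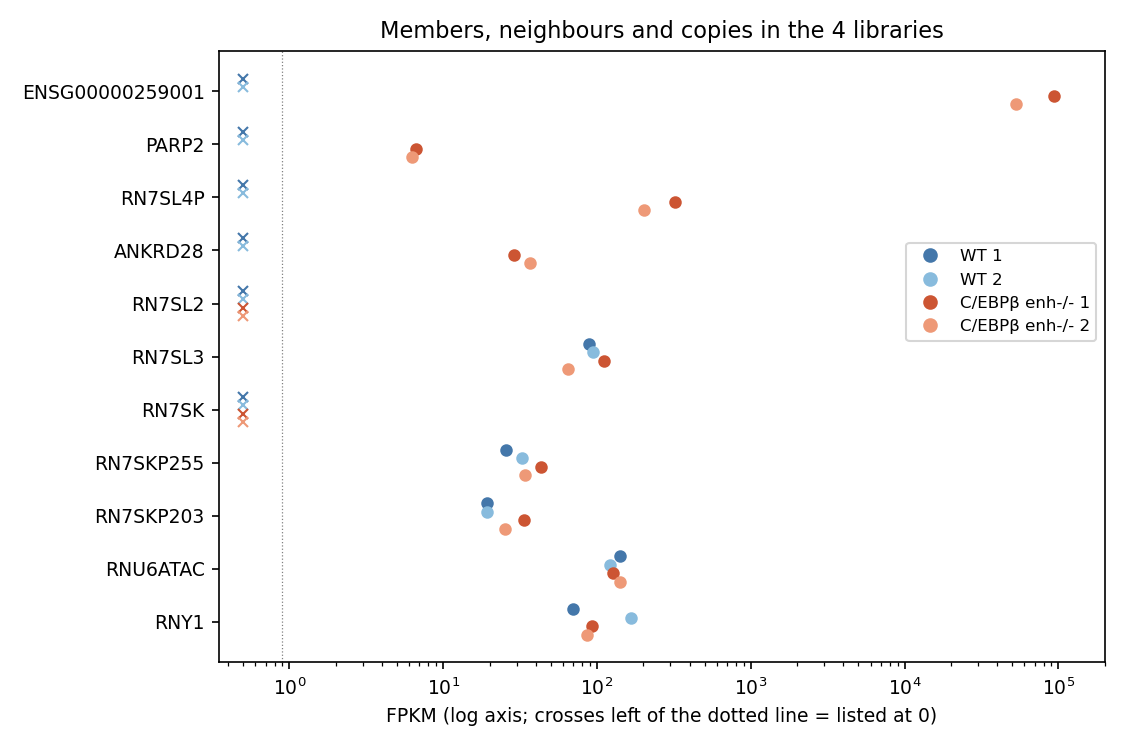
FPKM on a log axis of members, of the genes that overlap them and of copies of the same RNA families, 1 point per library, with crosses for entries listed at 0. ENSG00000259001, PARP2, RN7SL4P and ANKRD28 have crosses in both WT libraries and points in both C/EBPβ enh-/- libraries, while RN7SL2 and RN7SK have crosses in all 4.

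The genes that overlap these RNAs shared their zeros. PARP2, which encodes a poly(ADP-ribose) polymerase of DNA repair, starts on the opposite strand (chr14:20811774-20826063, plus) and shares 71 bases with ENSG00000259001. PARP2 had 0 in each WT library, 6.60 in C/EBPβ enh-/- library 1 and 6.31 in library 2. ANKRD28, which encodes an ankyrin repeat subunit of a protein phosphatase, contains RN7SL4P on the opposite strand (chr3:15708743-15901278, minus). ANKRD28 had 0 in each WT library, 28.8 in C/EBPβ enh-/- library 1 and 36.9 in library 2. Thus all 4 entries at these loci were without a value in WT cells and had values in C/EBPβ enh-/- cells. In ANKRD28, unlike RN7SL4P, library 2 was the higher one.

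Over all 57768 entries, 5 had 0 in each WT library and 1 or more in both C/EBPβ enh-/- libraries. This count and those that follow were made after the values had been seen. The 5 were ENSG00000259001, PARP2, RN7SL4P, ANKRD28 and RN7SL220P, another 7SL pseudogene, at 1.21 in both C/EBPβ enh-/- libraries. Hence 4 of the 5 came from the pair of loci just described. The opposite pattern was found for 7 entries, none of them annotated as protein-coding: RNU1-120P, SNORA15, SNORA3, SNORA67, SCARNA21, snoU13 (ENSG00000238746) and ENSG00000242284. Among 10909 protein-coding genes whose mean FPKM reached 1, only 5 were at 0 in any library (PARP2, ANKRD28, RBP2, SLFN13 and ZNF888). None of 20 genes that every cell uses was at 0. Since protein-coding genes that overlap the members were also at 0 in WT cells, these zeros are reported as listed values and not as absence of the RNA.

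Genes farther from these loci, within 50 kb and with a mean FPKM that reached 1, were looked at after the values had been seen. Near ENSG00000259001, CCNB1IP1 (9736 nt away) was at 74.6 and 42.1 in WT libraries and at 25.9 and 21.9 in C/EBPβ enh-/- libraries, and TEP1, 21982 nt away on the other side, at 5.94 and 6.24 against 4.56 and 4.43. TTC5 was at 10.7 and 14.7 against 9.69 and 7.69, and SNORA79 at 719 and 716 against 624 and 294. All 4 thus had values in each library, and none passed the threshold (adjusted p from 0.103 to 0.377, limma). ENSG00000254846, a noncoding gene 548 nt from ENSG00000259001, was at 0 in all 4 libraries. Near RN7SL4P, BTD (16204 nt away) was at 16.1 and 25.8 in WT libraries and at 21.5 and 17.2 in C/EBPβ enh-/- libraries, with overlapping groups. Near RN7SK, GSTA4 (316 nt away) was at 3.69 and 2.53 against 2.16 and 6.05, again with overlap. CILK1, 5329 nt from RN7SK, was at 1.48 and 2.09 against 3.82 and 4.57, without overlap but short of the threshold (adjusted p = 0.122, limma). No other entry lay within 5 kb of RN7SL2. Farther from it, NEMF was at 18.6 and 19.9 against 15.0 and 17.8, and ARF6 at 26.4 and 23.6 against 19.8 and 13.9, and neither passed the threshold (adjusted p = 0.605 and 0.262, limma).

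The promoter window of PARP2 is shown because it lies inside ENSG00000259001. Any part of this window in the values of either entry was not tested. The 250 bases before the RefSeq start of PARP2 (promoter table of build GRCh38) match chromosome 14 of GRCh37 once, at chr14:20811544-20811793 on the plus strand. All 250 lie inside ENSG00000259001. Other chromosomes were not searched. Capitals mark, from left to right, TTATAA, the octamer ATTTGCAT on the minus strand, and TGACGTCA. The PARP2 entry used for the values starts at 20811774, before the RefSeq start. The last bases of the window, with TGACGTCA (from 20811780), therefore lie within that entry. Of 35116 promoter windows of this length, 4.72% held TTATAA, 1.63% held ATTTGCAT and 1.65% held TGACGTCA on either strand. These are matches of letters and were not tested as binding sites.
PARP2 promoter: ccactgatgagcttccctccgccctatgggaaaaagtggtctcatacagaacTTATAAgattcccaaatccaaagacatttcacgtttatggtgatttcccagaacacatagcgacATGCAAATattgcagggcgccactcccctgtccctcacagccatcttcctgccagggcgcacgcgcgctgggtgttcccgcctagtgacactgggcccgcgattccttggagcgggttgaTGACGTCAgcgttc

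Copies of the 7SL genes had values where members had none. RN7SL3, which lies 8639 nt from RN7SL2, was at 89.2 and 93.8 in WT libraries and at 111 and 64.4 in C/EBPβ enh-/- libraries, yet RN7SL2 was at 0 throughout. How the authors' processing split fragments among copies is not given in the sources used here, and the values of 7SL and 7SK genes are therefore uncertain.

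For 7SK RNA the copies, and not the gene itself, carried the values. RN7SKP255 was at 25.6 and 32.4 in WT libraries and at 43.0 and 33.9 in C/EBPβ enh-/- libraries. RN7SKP203 was at 19.4 and 19.3 against 33.7 and 25.1. In both copies the C/EBPβ enh-/- values lay above the WT values, as in 15.1% of all 12491 tested genes, and neither passed the threshold (adjusted p = 0.394 and 0.233, limma).

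Families, grouped by symbol, were mostly at 0. Entries without a symbol are not in them, and RN7SL1 is not among the 7SL entries, so the sums may not cover a whole family. Of 847 entries of the 7SL family, 656 were at 0 in all 4 libraries and 36 were above 0 in all 4. Their summed FPKM was 152 and 160 in WT libraries against 514 and 361 in C/EBPβ enh-/- libraries, of which RN7SL4P made up 62.1% and 56.2%. Without RN7SL4P the family sum was 195 and 158 in C/EBPβ enh-/- libraries, which overlaps the WT range. The 7SK family (292 entries, 242 at 0 throughout) summed to 62.9 and 69.4 in WT libraries and to 99.9 and 80.3 in C/EBPβ enh-/- libraries. Besides RN7SL3, the only 7SL copy outside the members with a mean FPKM of at least 10 was RN7SL648P, at 8.52, 8.64, 6.41 and 20.6 in WT libraries 1 and 2 and C/EBPβ enh-/- libraries 1 and 2.

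Most entries of the shorter RNAs of RNA polymerase III were at 0 as well. Of 1364 U6 and U6atac entries, 1357 were at 0 in all 4 libraries. RNU6ATAC, a spliceosomal RNA of the minor class, had values of 121 to 141 in all 4. By contrast RNU6-1079P, RNU6-130P and RNU6-513P each had a value in 1 library only, of 50.9 in WT library 1 and of 113 and 387 in C/EBPβ enh-/- library 2. RNY1, which binds the Ro protein, was at 70.2 and 166 in WT libraries and at 92.1 and 85.6 in C/EBPβ enh-/- libraries, and was the only one of 56 Y RNA entries above 0. Of 520 5S rRNA entries, 519 were at 0 throughout, and of 5 vault RNA entries, 4. Of 7 entries named for RNase P or RNase MRP RNA and copies, 6 were at 0 throughout and 1 was at 0.0111 in C/EBPβ enh-/- library 2 alone. Short RNAs of RNA polymerase II could be high: the 3 highest U1 to U12 snRNA genes were RNU2-2P at 1477 to 1819, RNU4-2 at 389 to 529 and RNU4-1 at 218 to 453. Across all entries, 0.124% of those with a longest transcript of up to 100 nt were above 0 in any library, against 82.3% above 1000 nt. The extraction text in the labels describes work on chromatin with an antibody, so how RNA was selected, by size or otherwise, is not given in the sources used here.

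**Figure D2:**
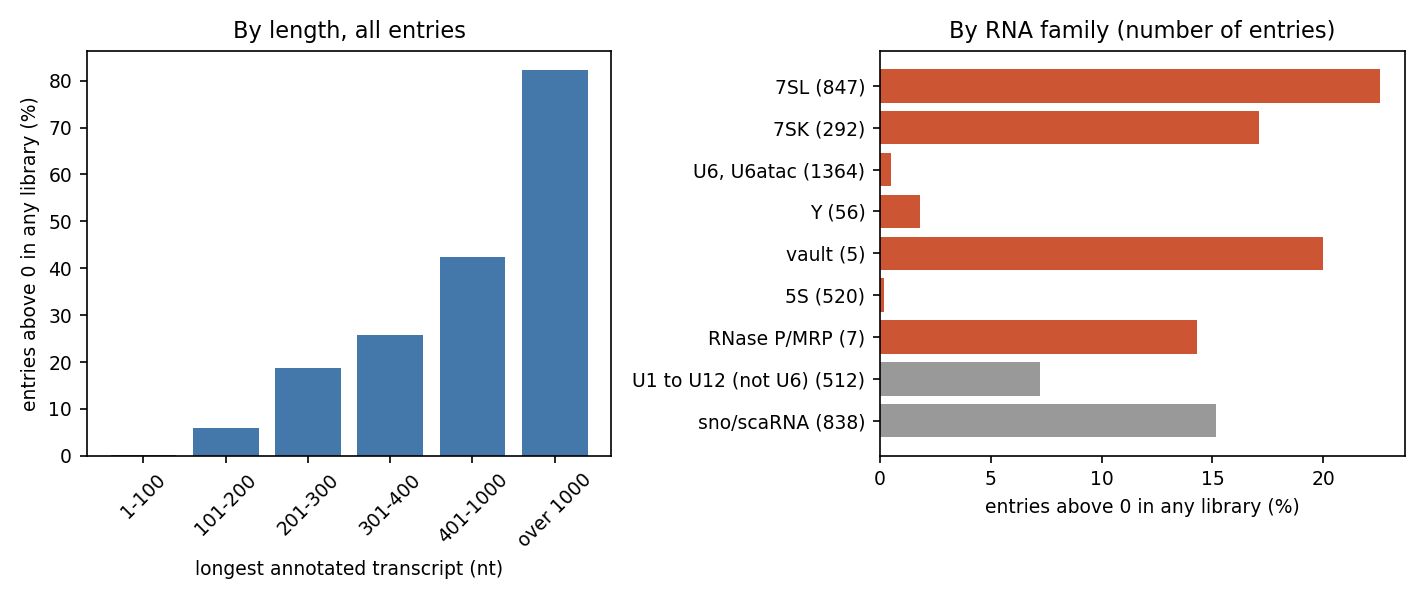
Percentage of entries above 0 in at least 1 library, by longest annotated transcript (left) and by RNA family (right, number of entries in brackets). On the right, red stands for RNA polymerase III and grey for RNA polymerase II, and entries without a symbol are not included. The percentage climbs from 0.124% at up to 100 nt to 82.3% above 1000 nt, and is 22.6% for 7SL and 0.513% for U6 and U6atac.

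The rank of ENSG00000259001 made it the main item in the FPKM total of C/EBPβ enh-/- cells. Totals were 545795.0 and 536884.2 in WT libraries 1 and 2 against 614111.2 and 484072.7 in C/EBPβ enh-/- libraries 1 and 2. ENSG00000259001 held 15.2% and 10.9% of the latter, and RN7SL4P 0.0520% and 0.0419%. The 4 members with an entry together held 13.1 percentage points more of the total in C/EBPβ enh-/- libraries, compared with a listed 0 in WT libraries. The shares of RMRP and RN7SL1 are not known. Without ENSG00000259001 the difference was 0.0469 points. Weighted by annotated length, which is closer to a share of fragments, ENSG00000259001 held 4.67% and 2.90%. The total in this weighting leaves out entries without a listed length, such as ENSG00000269900 and ENSG00000260682. The length that the authors' programs used is not given in the sources used here, so this weighting is approximate.

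Other entries with large shares were present in both genotypes. ENSG00000269900, an identifier without a symbol or position in the reference tables, held 10.6% and 12.6% in WT libraries and 9.63% and 8.46% in C/EBPβ enh-/- libraries. ENSG00000260682, also unmatched, held 3.25% and 3.44% against 4.95% and 4.31%. Whether either of these entries stands for RMRP or RN7SL1 is not known. SNORD3A, the U3 small nucleolar RNA made by RNA polymerase II, was at 35052 and 5408 FPKM in WT libraries 1 and 2, a 6.48-fold gap within a genotype, and at 24232 and 12988 in C/EBPβ enh-/- libraries. The remaining genes among the 5 highest were SNHG3 and EEF1A1 in WT libraries and CGA, the common subunit of glycoprotein hormones, in C/EBPβ enh-/- libraries (593 and 956 FPKM in WT libraries against 8568 and 5108). The 5 highest entries held 22.3% and 18.8% of the total in WT cells and 35.1% and 27.4% in C/EBPβ enh-/- cells.

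**Figure D3:**
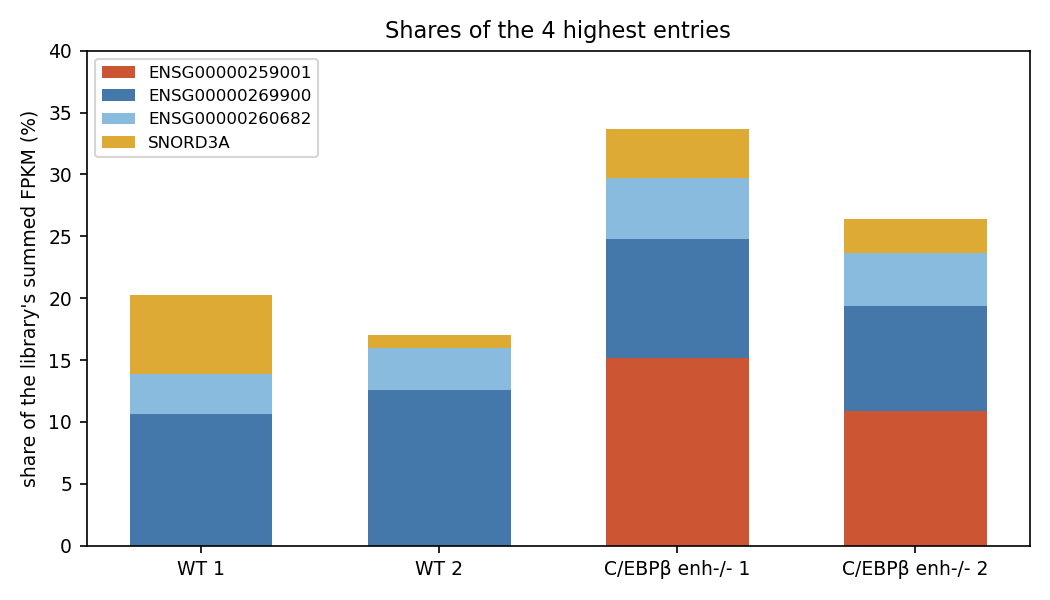
Stacked shares of each library's summed FPKM, in percent, for the 4 highest entries. ENSG00000259001 adds 15.2% and 10.9% in C/EBPβ enh-/- libraries and nothing in WT libraries, and SNORD3A differs between the WT libraries (6.42% and 1.01%).

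How far this RNA shifts the scale of other genes was asked by rescaling each library to the same total with and without it. As deposited, the median log2 fold change of the 12489 other tested genes (mean FPKM of at least 1, on the log2(FPKM + 1) scale) was -0.14, and 62.6% of them were negative. With equal totals it was -0.15. With equal totals taken without ENSG00000259001 it was 0.02, and 47.9% of genes were negative. Thus leaving 1 entry out of the FPKM totals moved the median by 0.17 and turned its sign. Leaving out all 4 members with an entry gave 0.03. Centring each library on its median puts this value near 0 by construction (0.03). Leaving out the entries with a listed length of at most 400 nt gave -0.15. These totals still held ENSG00000259001, which is longer, and all entries without a listed length, ENSG00000269900 and ENSG00000260682 among them. In the libraries themselves, removing ENSG00000259001 from the total raises all other values by 0.24 and 0.17 (log2) in C/EBPβ enh-/- libraries 1 and 2. With the length-weighted share, which counts only entries with a listed length, the removal raises them by 0.07 and 0.04. The removal raises none in WT libraries. The length-weighted factors are smaller than 0.14, so on that basis the sign of the deposited median would not turn. Leaving out C/EBPβ enh-/- library 1 gave a median of -0.19, and leaving out library 2 gave -0.10.

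**Figure D4:**
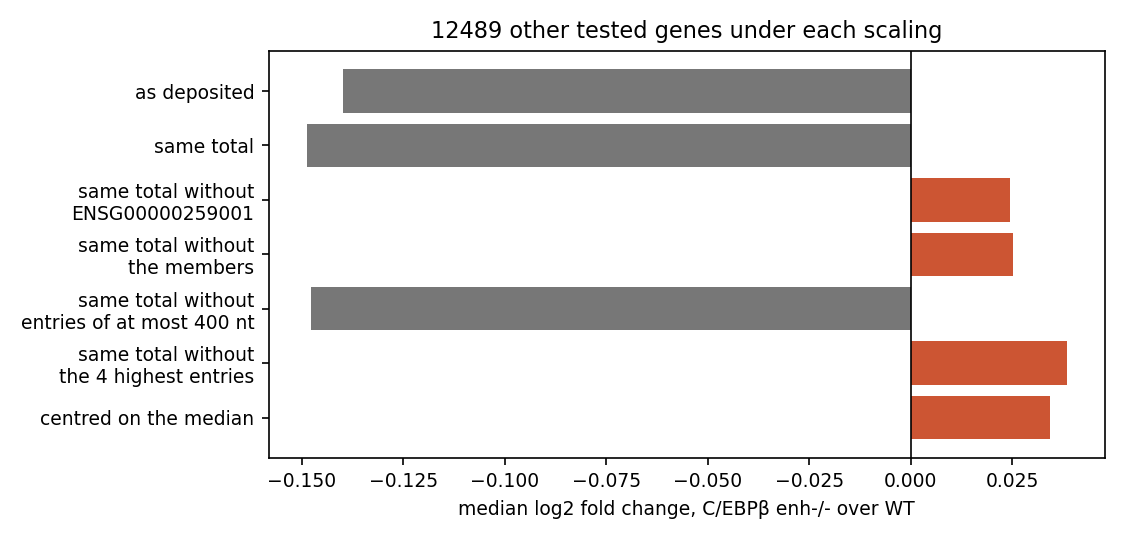
Median log2 fold change (C/EBPβ enh-/- over WT) of the 12489 tested genes other than the members under each scaling. The bars lie at -0.14 as deposited and at -0.15 with equal totals, and at 0.02 once ENSG00000259001 is left out of the FPKM total, a shift that is smaller with length-weighted shares (0.07 and 0.04).

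The calls of the test across all genes moved with the scale. Of 12491 genes, limma called 151 lower (1.21%) and 31 higher (0.248%) with the enhancer deleted, as deposited (adjusted p under 0.05), so 83.0% of calls were lower. Both members with values, PARP2 and ANKRD28 made up 4 of the 31, and nothing is read from this count because the members were selected on this contrast. With equal totals the counts were 61 and 23 (72.6% lower), and without ENSG00000259001 in the total 43 and 26 (62.3% lower). Centring gave 68 and 31 (68.7% lower). Leaving out 1 library at a time gave 9 to 22 lower and 3 to 20 higher. In the other direction, a fit without entries at 0 in any library, chosen after the values had been seen, gave 324 lower and 47 higher. With no filter limma called 0 and 0, with 2657 lower and 1107 higher at an unadjusted p under 0.05. At this unadjusted level there were 2114 lower and 482 higher as deposited, and 1858 and 499 with equal totals. Without ENSG00000259001 in the total there were 1168 and 1087, and after centring 1263 and 1142. With 2 libraries against 2, a two-sided exact permutation test of a single gene cannot give a p below 0.333.

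Depth also set C/EBPβ enh-/- library 1 apart. The spacing of low values in genes with a single transcript over 1000 nt gave depths, relative to WT library 1, of 1.12 for WT library 2 and of 0.555 and 1.24 for C/EBPβ enh-/- libraries 1 and 2. These are rough: only 49.0% to 53.3% of such values were within 0.1 of a whole fragment, and FPKM were not turned back into counts. Library 1, the shallower one, had the higher values of both members. Entries of at most 400 nt with a mean FPKM of at least 10 (105 without the members) were higher in library 1 than in library 2 by a median of 0.42 on the log2 scale, against 0.11 for 5840 longer ones. Between the WT libraries the same medians were 0.00 and -0.04. The part of depth or RNA size in the difference between libraries 1 and 2 was not tested.

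The genes nearest in profile were looked up for each member with an entry. For ENSG00000259001 and RN7SL4P the nearest 3 were the same, by Euclidean distance of centred log2(FPKM + 1) over 4 libraries: ANKRD28 (distance 11.1 and 3.01), NEO1 (11.7 and 3.59) and CYFIP2 (12.6 and 4.62). The centred profiles themselves had lengths of 16.1 and 8.01, so no gene came close to ENSG00000259001. Both members are at 0 in WT libraries and have long profiles, so genes with large rises come out nearest to each. The shared list is therefore no separate result. NEO1 was at 0.153 and 0.255 in WT libraries and at 31.1 and 19.3 in C/EBPβ enh-/- libraries, and CYFIP2 at 1.18 and 0.615 against 13.5 and 34.1. RN7SK and RN7SL2, at 0 throughout, have flat profiles, and the nearest genes were merely the flattest ones, E2F3, GOPC and TMCC2 (distances of 0.03).

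The protein partners of these RNAs had values in every library. All 60 genes on 6 lists passed the filter and none was at 0. SNAPC1, a subunit of the SNAPc complex that binds promoters of 7SK, U6 and RNase P RNA genes, was the only one of the 60 past the threshold, where 1.21% of all tested genes were called lower and 0.248% higher, so this count is near the background. It was at 15.1 and 18.4 in WT libraries and at 5.71 and 6.01 in C/EBPβ enh-/- libraries, so the genotypes did not overlap. It fell by 1.37 on the log2 scale (standard error 0.22, adjusted p = 0.0414, limma), or by 1.23 relative to the median of all genes. The call was lost with equal totals (adjusted p = 0.0700), without ENSG00000259001 in the total (0.106), after centring (0.0781) and with the replicate number as a block (0.0622) and whichever library was left out (0.117 to 0.291), and over all alternatives the adjusted p ranged from 0.0276 to 0.356. The log2 fold change itself lay between -1.50 and -1.18 in all of them. Of the 60, 18 lay below both WT values (30.0%, against 37.5% of all tested genes) and 11 above (18.3%, against 15.1%).

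Among the Pol III initiation factors (19 genes), GTF3A, the 5S rRNA gene factor TFIIIA, was next to SNAPC1. It was at 77.0 and 71.1 in WT libraries and at 32.3 and 37.7 in C/EBPβ enh-/- libraries. This drop of 1.06 on the log2 scale (standard error 0.21) missed the threshold (adjusted p = 0.0685, limma). GTF3A passed in 1 of 16 alternatives, the fit without entries at 0 in any library (adjusted p = 0.0491, limma). GTF3C6, a subunit of TFIIIC, was at 31.1 and 34.6 against 52.6 and 42.0. MAF1, the repressor of RNA polymerase III, was level as deposited, at 63.0 and 66.5 against 62.2 and 67.9. The list median was -0.03, which is 0.11 above that of all tested genes. This difference was 0.0463 without WT library 1 and 0.0465 without C/EBPβ enh-/- library 2. Of the 13 enzyme subunits, none passed the threshold, and the median of -0.11 lay 0.03 above that of all genes. This difference was -0.0415 without WT library 2. The largest differences were in POLR1C (17.3 and 29.5 in WT libraries, 45.4 and 29.0 in C/EBPβ enh-/- libraries), POLR3GL (9.69 and 9.71 against 5.93 and 5.98) and POLR1D (47.5 and 54.4 against 37.8 and 29.1). POLR3GL encodes a paralog of POLR3G, and its values in each genotype were close together. POLR1C and POLR1D are shared with RNA polymerase I.

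The proteins that assemble with the members were likewise without a call. Of 11 RNase P and RNase MRP proteins, 3 lay below and 2 above both WT values (37.5% and 15.1% of all tested genes did), with a median log2 fold change of -0.11. This was 0.03 above that of all genes, and the difference was -0.10 without C/EBPβ enh-/- library 1. RPP38 was at 10.1 and 9.07 in WT libraries and at 5.06 and 4.95 in C/EBPβ enh-/- libraries (log2 fold change -0.82, adjusted p = 0.108, limma). RPP21 was at 29.4 and 30.9 against 54.9 and 40.4, and POP7 at 28.1 and 42.2 against 25.7 and 25.6. The fitted changes of the 11 had both signs, and none passed the threshold. For the signal recognition particle (8 genes) the median was 0.09, or 0.23 above that of all genes. Its receptor subunits SRPRB (43.0 and 50.4 in WT libraries, 107 and 53.1 in C/EBPβ enh-/- libraries) and SRPRA (9.32 and 12.6 against 24.6 and 12.7) were high in C/EBPβ enh-/- library 1 only. SRP9, which binds the Alu part of 7SL RNA, was at 144 and 165 against 113 and 121.

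Of the 7 genes of the 7SK particle and P-TEFb, HEXIM2, an inhibitor of P-TEFb that binds 7SK RNA, was at 9.56 and 6.56 in WT libraries and at 3.30 and 3.91 in C/EBPβ enh-/- libraries (log2 fold change -0.96, adjusted p = 0.112, limma). CCNT2, a cyclin of P-TEFb, was at 8.27 and 8.59 against 5.91 and 5.30, and LARP7, which binds the end of 7SK RNA, at 13.1 and 11.6 against 17.7 and 14.1. The list median was -0.12, or 0.02 above that of all genes. This difference from all genes was -0.21 without WT library 1 and 0.19 without WT library 2. SSB, the La protein that binds the ends of new RNA polymerase III transcripts, was at 40.4 and 42.2 against 27.5 and 25.3, and RO60 at 43.3 and 38.7 against 29.6 and 35.1. Both lay below both WT values, as did 37.5% of all tested genes, and neither passed the threshold (adjusted p = 0.161 and 0.421, limma).

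**Figure D5:**
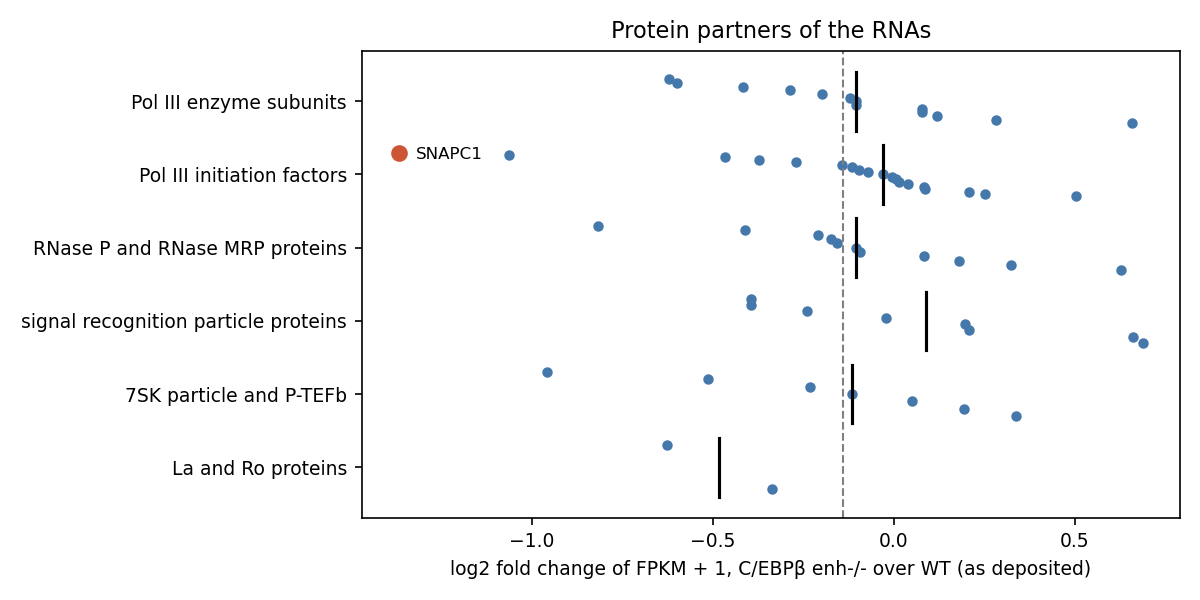
Log2 fold change of FPKM + 1 (C/EBPβ enh-/- over WT, as deposited) of 60 protein genes on 6 lists, 1 point per gene, with black lines for list medians and a dashed line for the median of the other tested genes (-0.14). SNAPC1 (-1.37, large point) is the only gene past the threshold.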

How the data were processed

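RNA-seq libraries labelled HepG2, 2 per genotype, were grouped by their titles. For each library the authors deposited a table of FPKM by gene. Their processing notes name TopHat2 2.0.13, Cufflinks, edgeR and hg19 without roles. Read counts were not used here. Of 57815 entries, 57768 remained without pseudoautosomal copies on chromosome Y, and 55535 identifiers matched a symbol. Positions and lengths (longest transcript) were read from GRCh37 with GENCODE release 44 (lifted annotation), and promoters from RefSeq.

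Genotypes were compared on log2(FPKM + 1) for 12491 genes whose mean FPKM reached 1, using limma 3.58.1 in R 4.3.3 (lmFit, eBayes with trend), two-sided. P-values were adjusted by Benjamini-Hochberg over these genes and called below 0.05. The fit was tested on simulated data. Fold changes on this scale understate the change of low genes. The members and lists were chosen with earlier results of these data known. Named genes were the members, genes within 5 kb, the 3 nearest profiles per member, list genes past the threshold or with the 3 largest changes, the 5 highest genes per library, CEBPB, copies with a mean FPKM of at least 10 and the 3 highest U1 to U12 genes. Others were named after their values were seen. Alternatives were other scalings, pseudocounts and filters, no trend, a replicate block and leaving out each library. Tables were handled in Python 3.11.15 with pandas 2.3.3 and numpy 2.4.6, and plots drawn with matplotlib 3.10.9.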

Additional observations from a re-analysis of the deposited data

How the results depend on the processing

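Counts of called genes depended on the scale and on single libraries. Against 151 genes lower as deposited, there were 61 with equal totals and 43 with totals taken without ENSG00000259001 or without all members. There were 65 when entries with a listed length of at most 400 nt were left out and 68 after centring. Against 31 genes higher, a filter at a mean FPKM of 5 gave 20, and the scalings gave 23 to 31. With no filter limma called 0 in either direction, with 2657 lower and 1107 higher at an unadjusted p under 0.05. Leaving out 1 library gave 9 to 22 lower and 3 to 20 higher, with the lone library assumed to vary like the other genotype. With the replicate block, 93 genes were lower and 31 higher. Deviations of same-numbered libraries had a correlation of 0.01 across genes. This value alone cannot decide whether same-numbered libraries were prepared together. Chosen after seeing the data, equal totals without the 4 highest entries gave 58 lower, and a fit without entries at 0 in any library gave 324 lower and 47 higher. Which genes these were was not compared.

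The median of the other genes was 0.0245 without ENSG00000259001, 0.0252 without the members, 0.0385 without the 4 highest entries, 0.0344 after centring and 0 with no filter. The value after centring was fixed near 0 by construction. With no filter, many entries were at 0 in all 4 libraries and had a change of exactly 0, so this median says little on expressed genes. The median of the other genes ran from -0.19 to -0.10 with 1 library left out. The difference in the share of the 4 members with an entry was 3.79 points weighted by length, 0.0469 without ENSG00000259001, 0 without genes at 0 in any library (which leaves out all 4, so that this value was fixed by construction), and 10.9 to 15.2 with 1 library left out.

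With no filter the median of all genes was 0, so list medians relative to it were the plain list medians and say nothing on stability. These were -0.11 for enzyme subunits, -0.0313 for initiation factors and 0.0873 for the signal recognition particle. For the 7SK particle the value was -0.12 (0.13 relative to all tested genes at a mean FPKM of 5), and for La and Ro -0.48. With 1 library left out, medians relative to all tested genes ran from -0.0415 to 0.12, 0.0463 to 0.13, 0.21 to 0.28, -0.21 to 0.19 and -0.41 to -0.26. RNase P and RNase MRP proteins ran from -0.10 to 0.15. Where the construction of a setting does not show it, the cause was not tested. The number of libraries and the unknown assignment of fragments among copies limit all of these values.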
